A study of Mus musculus with 15 samples.

Results

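The genes described here are 32 genes of mitosis and of the G2/M phase, taken from a count table of 27179 mouse genes by matching the table's Entrez gene numbers to their symbols; all 32 were found and all 32 passed the filter on low counts, among 13883 genes tested. The RNA came from epithelial cells that carried the surface protein EpCam and lacked CD45 and CD31, which mark leukocytes and endothelial cells. All cells came from mice carrying Lrig1-eGFP-IRES-CreERT2, which places a green fluorescent reporter under the control of Lrig1, together with APCmin, an allele of the tumor suppressor Apc that gives rise to intestinal tumors. Cells from colonic tumors and from normal colonic epithelium were each sorted by reporter signal into an Lrig1-high and an Lrig1-low fraction, so every group shares both alleles and the labels describe no animal without APCmin. Lrig1 encodes a transmembrane inhibitor of growth factor receptors and marks a population of intestinal stem and progenitor cells. The groups held 4 normal Lrig1-low libraries (S01, S05, S09 and S13), 4 normal Lrig1-high libraries (S02, S06, S10 and S14), 4 tumor Lrig1-low libraries (S03, S07, S11 and S15) and 3 tumor Lrig1-high libraries (S04, S08 and S12). S15 held 357 counts, with 0 from these genes, and was left out, which leaves 14 libraries and 3 for tumor Lrig1-low. Age and sex are not in the labels, and neither is the animal a library came from; the spread behind each p-value is therefore that between libraries, which may be technical.

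Mitosis genes are transcribed late in the cell cycle. Cyclin A2 and the B-type cyclins activate the kinase Cdk1, which drives entry into mitosis; the kinetochore proteins and the spindle checkpoint hold chromosomes until they are attached; the anaphase-promoting complex, with Cdc20 and Ube2c, then marks the cyclins for destruction so that the cell can divide. In the intestine dividing cells sit in the crypts, and cells stop dividing as they differentiate and leave them, so the RNA of these genes is commonly read as a measure of how much of a population is in cycle. In bulk RNA, fewer dividing cells and less of each RNA per dividing cell cannot be told apart.

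The 14 libraries held 9508505 to 17296536 counts in genes. Values are CPM, read counts scaled to the size of each library and, for its composition, by the trimmed mean of M-values (TMM). The gene the cells were sorted by went against the labels in part of the series: Lrig1 stood at 51.4, 45.3, 85.5 and 53.97 CPM in the normal Lrig1-low libraries, at 126, 138, 36.4 and 146 CPM in the normal Lrig1-high libraries, at 53.2, 142 and 43.03 CPM in the tumor Lrig1-low libraries and at 148, 55.7 and 72.5 CPM in the tumor Lrig1-high libraries, in the order given above. The library labelled normal Lrig1-high S10 was the lowest of all 14 and the library labelled tumor Lrig1-low S07 lay among the highest, while S08 and S09, labelled high and low, lay on the far side of their partners S07 and S10. Results are therefore given with all 14 libraries and without S07, S08, S09 and S10; that choice was made with their values known and is no independent evidence of a direction. S12 stood apart in another way, with 42.8% of its counts in mitochondrial ribosomal RNA against 12.9% to 27.1% in the others. It also had the fewest genes holding a count, 11995, against 12900 in S08, the next lowest, and up to 16425. The labelled tissue is colon, yet the Paneth cell genes Lyz1 and Defa24, markers of a small-intestinal cell type, reached 3998 and 4621 CPM in normal libraries, and Car1, a carbonic anhydrase abundant in colon epithelium and looked up with these results known, had 0 counts in all 8 normal libraries. Epcam stood at 605 to 1509 CPM, and the T-cell gene Cd3e and the fibroblast gene Col1a1 stayed under 1 CPM in every library. Col1a1 is 1 of 10 fibroblast and smooth muscle genes, which together summed to 10.9 CPM in S14, the lowest, and to 129 CPM in S11, the highest. They summed to 46.2 CPM in S12 and 33.9 CPM in S03. Of the sorted-out markers, Ptprc, the gene of CD45, reached 46.1 CPM in a tumor Lrig1-high and 11.2 CPM in a normal Lrig1-low library, and Pecam1, the gene of CD31, reached 1.85 CPM. The endothelial gene Cdh5 reached 155 CPM in a tumor Lrig1-low and 30.2 CPM in a normal Lrig1-high library.

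The levels of the members went together across libraries, and the promoters of both B-type cyclins, Cdk1, Plk1, Ube2c and Birc5 are shown for the motifs that such genes share. They come from RefSeq on GRCm38.p6 and run from 250 bases before to 50 bases after the start of the gene, 5′ to 3′ on the gene's strand. The windows are Ccnb1 on chr13:100786437-100786736 (minus strand), Ccnb2 on chr9:70421505-70421804 (minus strand), Cdk1 on chr10:69352863-69353162 (minus strand), Plk1 on chr7:122159185-122159484 (plus strand), Ube2c on chr2:164769679-164769978 (plus strand) and Birc5 on chr11:117848987-117849286 (plus strand). Capitals mark matches on either strand to the 2 forms of the cell cycle genes homology region, TTTGAA, which reads TTCAAA when it lies on the opposite strand, and a second form, TTCGAA, which is its own reverse complement. They also mark the CCAAT box, which reads ATTGG when it lies on the opposite strand. The homology region is bound by the DREAM and MYBL2-containing complexes, and the CCAAT box by NF-Y.
Ccnb1: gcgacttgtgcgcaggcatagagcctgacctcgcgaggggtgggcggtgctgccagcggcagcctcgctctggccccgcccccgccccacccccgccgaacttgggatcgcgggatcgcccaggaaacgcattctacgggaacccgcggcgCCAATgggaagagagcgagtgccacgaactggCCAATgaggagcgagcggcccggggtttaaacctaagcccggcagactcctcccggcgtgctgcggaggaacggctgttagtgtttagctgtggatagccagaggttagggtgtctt
Ccnb2: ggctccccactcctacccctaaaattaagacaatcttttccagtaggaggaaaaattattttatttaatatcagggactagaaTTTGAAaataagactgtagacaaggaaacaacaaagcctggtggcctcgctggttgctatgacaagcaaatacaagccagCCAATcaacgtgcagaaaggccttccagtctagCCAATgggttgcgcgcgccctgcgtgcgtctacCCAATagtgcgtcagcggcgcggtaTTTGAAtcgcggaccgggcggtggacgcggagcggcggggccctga
Cdk1: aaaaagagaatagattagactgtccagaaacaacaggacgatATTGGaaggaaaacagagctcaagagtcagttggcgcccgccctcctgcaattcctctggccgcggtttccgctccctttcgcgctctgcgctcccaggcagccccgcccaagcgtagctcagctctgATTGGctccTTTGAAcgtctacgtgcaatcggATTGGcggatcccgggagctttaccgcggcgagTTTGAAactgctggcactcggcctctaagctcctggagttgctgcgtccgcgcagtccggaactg
Plk1: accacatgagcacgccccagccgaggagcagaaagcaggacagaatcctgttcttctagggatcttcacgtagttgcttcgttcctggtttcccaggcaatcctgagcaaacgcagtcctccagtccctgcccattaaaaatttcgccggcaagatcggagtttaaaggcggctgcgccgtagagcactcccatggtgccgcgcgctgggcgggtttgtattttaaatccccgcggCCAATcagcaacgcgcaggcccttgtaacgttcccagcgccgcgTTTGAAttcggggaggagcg
Ube2c: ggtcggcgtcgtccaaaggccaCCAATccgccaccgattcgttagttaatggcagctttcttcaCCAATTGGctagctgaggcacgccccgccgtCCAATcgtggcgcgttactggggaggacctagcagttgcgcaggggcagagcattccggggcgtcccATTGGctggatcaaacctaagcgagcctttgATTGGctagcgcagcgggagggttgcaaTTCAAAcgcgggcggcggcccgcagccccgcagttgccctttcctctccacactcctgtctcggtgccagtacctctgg
Birc5: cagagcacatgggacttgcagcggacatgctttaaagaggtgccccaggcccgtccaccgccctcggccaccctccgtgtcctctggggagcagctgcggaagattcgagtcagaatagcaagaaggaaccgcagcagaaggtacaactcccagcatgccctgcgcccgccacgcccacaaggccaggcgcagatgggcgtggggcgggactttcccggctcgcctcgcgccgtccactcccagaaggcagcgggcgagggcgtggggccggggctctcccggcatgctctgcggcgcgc

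Of the 32 genes, 28 had a promoter in the table. TTTGAA was found in 22 of the 28 (78.6%), against 18.1% of all 27025 promoters of the same length, and TTCGAA in 3 (10.7%), against 1.57%. CCAAT was found in 22 of the 28 (78.6%), against 37.9%, and at least 2 copies of it in 15 (53.6%), against 12.2%. A CCAAT box together with either homology form was found in 20 (71.4%), against 7.70% of all promoters. In the promoters printed above, Cdk1 holds TTTGAA at 71 and at 15 bases before the start and CCAAT on the opposite strand at 208, 80 and 48 bases before it; Ccnb2 holds TTTGAA 5 bases after the start and 3 CCAAT boxes before it; Ube2c holds 6 CCAAT matches, a pair of which overlap. Ccnb1 holds CCAAT alone in this window, and Birc5 holds none of the motifs. Within the 100 bases before the start, CCAAT remained in 20 of the 28 promoters (71.4%), against 19.6% of all, and a homology form in 6 (21.4%), against 6.29%. This shorter window leaves out homology matches after the start, such as those of Cenpf, Plk1 and Aurka at 3, 31 and 33 bases after it. These are matches of letters, not bound sites.

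Per kilobase of exon, the level of RNA differed widely between the 32 genes. Mki67, which coats mitotic chromosomes, had the highest median level over the 14 libraries, at 64.8 CPM per kilobase. Ube2c, the ubiquitin-conjugating enzyme of the anaphase-promoting complex, followed at 48.9, then Top2a, the topoisomerase that untangles sister chromatids, at 42.2, cyclin A2 (Ccna2) at 36.5 and cyclin B2 (Ccnb2) at 29.1 CPM per kilobase. Cyclin B1 (Ccnb1) stood at 4.91 CPM per kilobase, under cyclin B2, and the checkpoint kinase Ttk was lowest at 2.84. The spread over libraries, as the SD of log2(CPM + 0.5), was smallest for Ccnb2 at 0.42 and largest for Nusap1 at 2.53, a value that rests on S14 as described below.

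**Figure D1:**
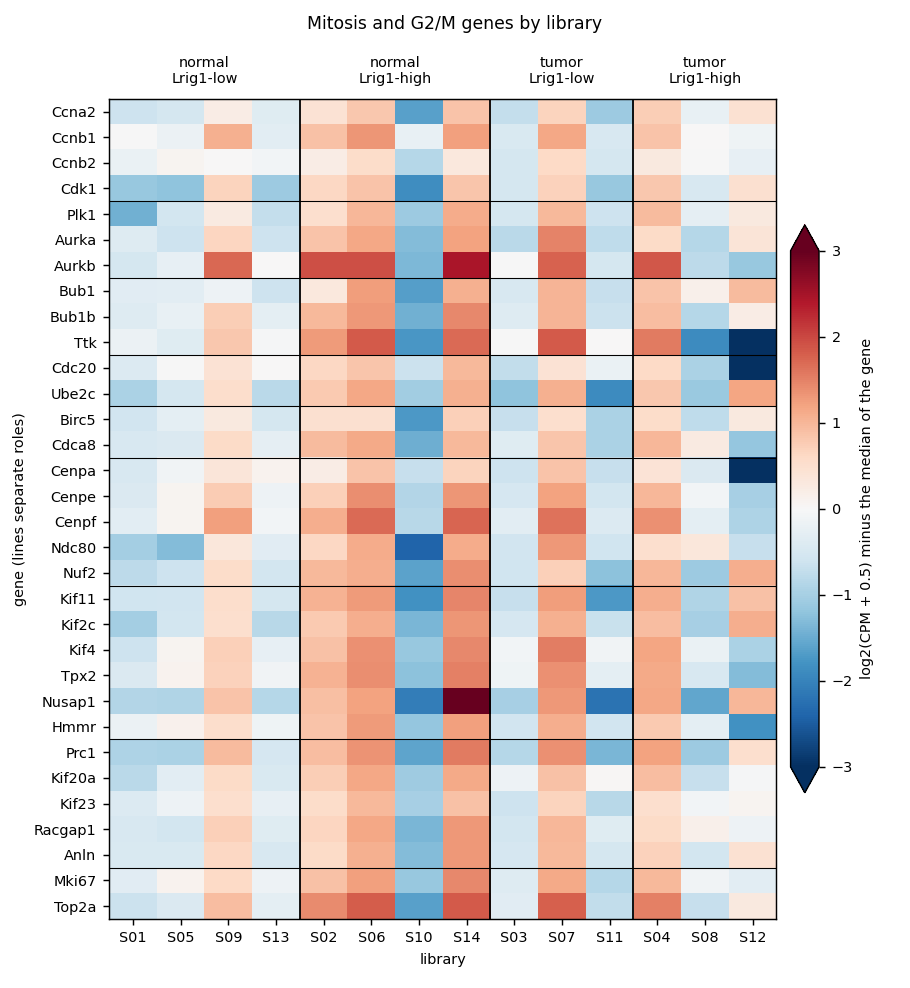
Level of the 32 genes (rows, ordered by role) in 14 libraries (columns, by group), as log2(CPM + 0.5) minus the median of the gene, red above and blue below it, with the scale ending at 3 in each direction. S02, S06, S14, S07 and S04 are high in nearly every row and S10 is low; Nusap1 in S14 and Ttk, Cdc20 and Cenpa in S12 break the pattern.

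Which libraries were high was nearly the same for every gene. S02, S06 and S14 of the normal Lrig1-high group, S07 of the tumor Lrig1-low group and S04 of the tumor Lrig1-high group were among the 6 highest libraries for all 32 genes, and S09 of the normal Lrig1-low group was among them for 23. S10, labelled normal Lrig1-high, was the lowest library for 21 genes, S12 for 7 and S11 for 3. The high libraries therefore included 3 of the 4 normal Lrig1-high libraries, 1 of the 3 tumor Lrig1-low libraries and 1 of the 3 tumor Lrig1-high libraries. The map of levels by gene and library shows this as columns of one colour.

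In normal epithelium the Lrig1-high group was compared with the Lrig1-low group, which asks whether cells with more of the reporter carry more mitotic RNA. The fitted log2 difference between the fractions, positive where the Lrig1-high cells had more, was above 0 for 32 of 32 genes, with a median of 0.87, while the median of all genes tested was 0.01. In edgeR's quasi-likelihood test with Benjamini-Hochberg adjustment 0 of the 32 genes passed an adjusted p of 0.05, where 0% of all genes tested passed (percent of the 13883 genes); 1 gene, Nusap1, had an unadjusted p under 0.05, as had 499 of all genes. DESeq2 called 0 of the 31 genes for which it gave an adjusted p. For 0 genes did the 2 groups fail to overlap, against 2.84% of all genes tested, and S10 was the lowest of all 14 libraries for most of the 32. A fit with limma-voom, which weights each library by how far it departs from its group, called 29 of the 32 genes higher with a median of 1.30, where 14.8% of all genes were called higher; its weight was 0.348 for S10 against 2.38 to 3.29 for the other 3 libraries of the group. Without S07, S08, S09 and S10, edgeR called 19 of the 32 higher, with a median of 1.56, where 3.39% of all genes were called higher. That count depended on single libraries: it was 7 without S01 or S05, 8 without S06 and 12 without S13 or S14. It was higher without S04 or S12, a fit with a lone tumor Lrig1-high library. The share of all genes called in these fits is not given here, so these counts show only how far the 19 moves.

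**Figure D2:**
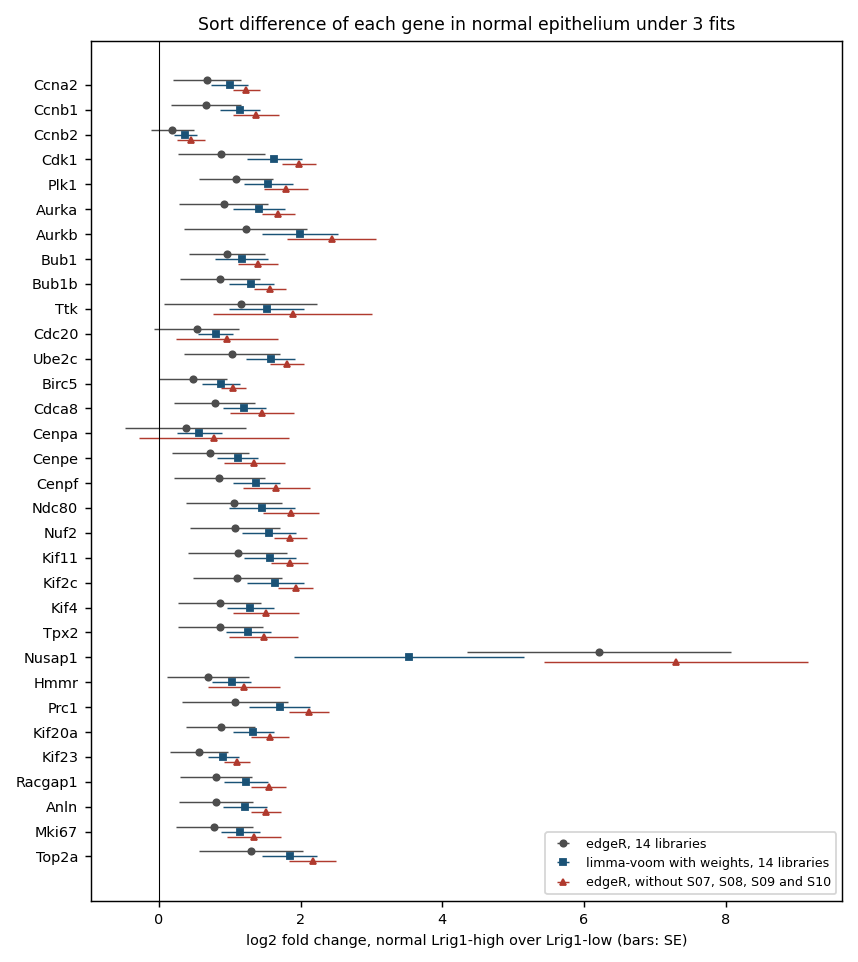
Log2 fold change (horizontal axis, with SE) of normal Lrig1-high over Lrig1-low for each of the 32 genes under 3 fits: edgeR on 14 libraries (circles), limma-voom with library weights on 14 libraries (squares) and edgeR without S07, S08, S09 and S10 (triangles). Every point lies above 0, the SE of the first fit is the widest for most genes, and Nusap1 stands apart from the rest in each fit.

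Cyclins and Cdk1 drive entry into mitosis. Ccna2 (Entrez 12428, chr3:36564865-36571996, mm10) is the cyclin of S phase and G2. Ccna2 stood at 65.2, 70.3, 118 and 78.5 CPM in the normal Lrig1-low libraries S01, S05, S09 and S13, and at 136, 179, 32.4 and 183 CPM in the normal Lrig1-high libraries S02, S06, S10 and S14. In tumors it stood at 61.4, 161 and 47.03 CPM in the Lrig1-low libraries S03, S07 and S11 and at 169, 87.2 and 140.1 CPM in the Lrig1-high libraries S04, S08 and S12. The high values were those of S02, S06, S14, S07, S04 and S12, and the groups overlapped. Its log2 fold change between the normal fractions was 0.68 ± 0.48 (SE; unadjusted p = 0.183, adjusted p = 1) in edgeR's quasi-likelihood test, 1.003 ± 0.26 (SE; adjusted p = 0.0133) in limma-voom, and 1.24 ± 0.19 (SE; adjusted p = 0.00976) in edgeR without the 4 libraries. Cdk1 itself ranged from 7.15 CPM in S10 to 49.7 CPM in S06, cyclin B1 from 8.07 to 29.2 CPM and cyclin B2 from 24.7 to 67.8 CPM. Over the 4 genes the edgeR fold changes in normal epithelium ran from 0.19 to 0.89, the smallest being that of cyclin B2, which limma-voom did not call either.

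The mitotic kinases Plk1, Aurka and Aurkb act on centrosomes, spindle poles and the inner centromere. Plk1 stood at 10.2, 19.3, 34.7 and 17.3 CPM in normal Lrig1-low, 40.4, 57.7, 13.1 and 61.97 CPM in normal Lrig1-high, 19.6, 56.3 and 18.4 CPM in tumor Lrig1-low and 55.7, 23.4 and 34.7 CPM in tumor Lrig1-high libraries, in the same order. Plk1 (Entrez 18817, chr7:122159437-122169875) was above 40 CPM in the same 5 libraries that were high for all genes and at or under 34.7 CPM in the other 9. Its fold change between the normal fractions was 1.09 ± 0.52 (SE; unadjusted p = 0.0573, adjusted p = 1) on the log2 scale in edgeR and 1.55 ± 0.34 (SE; adjusted p = 0.00699) in limma-voom. Aurkb, the kinase of the chromosomal passenger complex, ran from 4.30 CPM in S10 to 66.5 CPM in S14, and Aurka from 6.06 to 44.5 CPM. The edgeR fold changes of the 3 kinases were 0.92 to 1.22.

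Bub1, Bub1b and Ttk form the core of the spindle checkpoint. Bub1b stood at 40.03, 45.01, 87.9 and 42.8 CPM in normal Lrig1-low, 103, 129, 19.03 and 143 CPM in normal Lrig1-high, 39.6, 107 and 33.1 CPM in tumor Lrig1-low and 99.6, 28.9 and 60.9 CPM in tumor Lrig1-high libraries, in the same order. Bub1b (BubR1; Entrez 12236, chr2:118598211-118641592) averaged 53.9 ± 22.7 CPM (SD, n = 4) in the normal Lrig1-low and 98.4 ± 55.4 CPM (SD, n = 4) in the normal Lrig1-high group, an SD of the second group that exceeds the difference. Its log2 fold change was 0.87 ± 0.56 (SE; unadjusted p = 0.148, adjusted p = 1) in edgeR and 1.30 ± 0.32 (SE; adjusted p = 0.0101) in limma-voom. Bub1 ran from 5.27 to 42.2 CPM and Ttk from 0 counts in S12 to 33.0 CPM in S07, and the 3 edgeR fold changes were 0.87 to 1.15.

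Cdc20 activates the anaphase-promoting complex, and Ube2c is its ubiquitin-conjugating enzyme. Ube2c stood at 21.8, 29.2, 61.8 and 24.1 CPM in normal Lrig1-low, 74.01, 95.99, 20.4 and 89.8 CPM in normal Lrig1-high, 18.02, 90.2 and 11.03 CPM in tumor Lrig1-low and 74.9, 19.4 and 97.1 CPM in tumor Lrig1-high libraries, in the same order. Ube2c (Entrez 68612, chr2:164769929-164772902) was highest in S12, a library in which most other genes of the set were not high. Its log2 fold change between the normal fractions was 1.03 ± 0.68 (SE; unadjusted p = 0.151, adjusted p = 1) in edgeR and 1.58 ± 0.34 (SE; adjusted p = 0.00655) in limma-voom. Cdc20 ran from 2.27 CPM in S12 to 55.4 CPM in S14, with an edgeR fold change of 0.53. The 15 core subunits of the complex, which are not cell cycle regulated to the same degree, had a median of 0.21 and 11 of 15 values above 0 in the same comparison; 0 of them passed the test.

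Birc5 (survivin) and Cdca8 (borealin) belong with Aurkb to the chromosomal passenger complex. Birc5 stood at 31.6, 38.5, 58.4 and 32.5 CPM in normal Lrig1-low, 66.4, 65.8, 14.003 and 78.3 CPM in normal Lrig1-high, 29.01, 66.9 and 24.1 CPM in tumor Lrig1-low and 69.3, 27.5 and 58.1 CPM in tumor Lrig1-high libraries, in the same order. The log2 fold change of Birc5 (Entrez 11799, chr11:117849237-117855743) was 0.48 ± 0.48 (SE; unadjusted p = 0.335, adjusted p = 1) in edgeR, among the smaller of the set, and 0.88 ± 0.27 (SE; adjusted p = 0.0259) in limma-voom. Cdca8 ran from 11.2 CPM in S10 to 70.3 CPM in S06.

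Cenpa, the histone variant that marks centromeres, and Cenpe, Cenpf, Ndc80 and Nuf2 build the kinetochore. Cenpf stood at 88.5, 118, 259 and 104 CPM in normal Lrig1-low, 237, 361, 62.4 and 373 CPM in normal Lrig1-high, 88.7, 346 and 82.9 CPM in tumor Lrig1-low and 286, 91.2 and 58.6 CPM in tumor Lrig1-high libraries, in the same order. Cenpf (Entrez 108000, chr1:189640606-189688086) was highest in S14, S06, S07, S04, S09 and S02, and not above 118 CPM in the other 8. Nuf2 stood at 14.8, 16.7, 38.2 and 17.7 CPM in normal Lrig1-low, 51.4, 55.8, 8.18 and 69.1 CPM in normal Lrig1-high, 16.97, 43.3 and 10.9 CPM in tumor Lrig1-low and 52.2, 11.9 and 56.1 CPM in tumor Lrig1-high libraries, in the same order. Nuf2 (Entrez 66977, chr1:169497934-169531464), a subunit of the Ndc80 complex, differed from Cenpf in S12, where it was high and Cenpf at its lowest. In the normal fractions the log2 fold change was 0.86 ± 0.65 (SE; unadjusted p = 0.207, adjusted p = 1) for Cenpf and 1.07 ± 0.64 (SE; unadjusted p = 0.115, adjusted p = 1) for Nuf2 in edgeR, and 1.38 ± 0.33 (SE; adjusted p = 0.00985) and 1.55 ± 0.38 (SE; adjusted p = 0.0102) in limma-voom. Cenpa had the smallest edgeR fold change of the 5, 0.38, and limma-voom did not call it. Ndc80 ran from 3.15 to 47.1 CPM and Cenpe from 43.8 to 233 CPM.

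The spindle motors and assembly factors are Kif11, which pushes the poles apart, Kif2c, Kif4, Tpx2, Hmmr and Nusap1. Nusap1 stood at 23.2, 22.8, 77.8 and 23.8 CPM in normal Lrig1-low, 81.2, 101, 9.88 and 10738 CPM in normal Lrig1-high, 21.4, 107 and 8.89 CPM in tumor Lrig1-low and 97.7, 14.3 and 86.2 CPM in tumor Lrig1-high libraries, in the same order. Apart from S14, which is taken up below, Nusap1 (Entrez 108907, chr2:119618298-119650160), a microtubule-bundling protein, was highest in S07, S06, S04, S12, S02 and S09. Its log2 fold change in normal epithelium was 6.21 ± 1.86 (SE; unadjusted p = 0.00503, adjusted p = 1) in edgeR and 0.80 ± 0.91 (SE; adjusted p = 1) without S14. For the other 5 genes of this role the edgeR fold changes ran from 0.70 (Hmmr) to 1.12 (Kif11), and all 5 were called by limma-voom. Kif11 ran from 24.3 to 238 CPM, Kif2c from 6.001 to 41.3, Kif4 from 14.4 to 94.3, Tpx2 from 22.5 to 161 and Hmmr from 12.4 to 109.6 CPM.

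Prc1, Kif20a, Kif23, Racgap1 and Anln act at the spindle midzone and in cytokinesis. Kif23 stood at 63.7, 75.5, 120.3 and 71.4 CPM in normal Lrig1-low, 124, 166, 42.4 and 156 CPM in normal Lrig1-high, 54.9, 135 and 47.6 CPM in tumor Lrig1-low and 121, 79.3 and 90.3 CPM in tumor Lrig1-high libraries, in the same order. Kif23 (Entrez 71819, chr9:61917277-61946799), which forms the centralspindlin complex with Racgap1, had one of the smaller spreads over libraries, an SD of 0.63 on the log2 scale. Its log2 fold change between the normal fractions was 0.56 ± 0.41 (SE; unadjusted p = 0.191, adjusted p = 1) in edgeR and 0.91 ± 0.22 (SE; adjusted p = 0.01) in limma-voom. The edgeR fold changes of the 5 genes ran from 0.56 (Kif23) to 1.08 (Prc1). Prc1, the midzone bundler, ran from 13.6 to 124.9 CPM, Kif20a from 16.5 to 79.1, Racgap1 from 15.6 to 102.3 and Anln from 14.1 to 87.2 CPM.

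Mki67 and Top2a act on chromosome structure. Mki67 stood at 512, 699.7, 991 and 584 CPM in the normal Lrig1-low libraries S01, S05, S09 and S13, and at 1200.3, 1534, 295 and 1767 CPM in the normal Lrig1-high libraries S02, S06, S10 and S14. In tumors it stood at 495, 1431 and 361 CPM in the Lrig1-low libraries S03, S07 and S11 and at 1286, 606 and 520.4 CPM in the Lrig1-high libraries S04, S08 and S12. Mki67 (Entrez 17345, chr7:135689788-135716379), the gene of the proliferation marker Ki-67, averaged 697 ± 211 CPM (SD, n = 4), 1199 ± 646 CPM (SD, n = 4), 762 ± 583 CPM (SD, n = 3) and 804 ± 419 CPM (SD, n = 3) in the 4 groups in that order. The plot of 9 genes by group shows how S10 lies under, and S07 above, the other libraries of their groups. The log2 fold change of Mki67 between the normal fractions was 0.78 ± 0.54 (SE; unadjusted p = 0.17, adjusted p = 1) in edgeR, 1.15 ± 0.27 (SE; adjusted p = 0.00906) in limma-voom and 1.34 ± 0.38 (SE; adjusted p = 0.072) in edgeR without the 4 libraries, where it was not called. Top2a ran from 69.2 CPM in S10 to 774 CPM in S14, with an edgeR fold change of 1.30 and limma-voom's 1.85 ± 0.39 (SE; adjusted p = 0.00577).

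**Figure D3:**
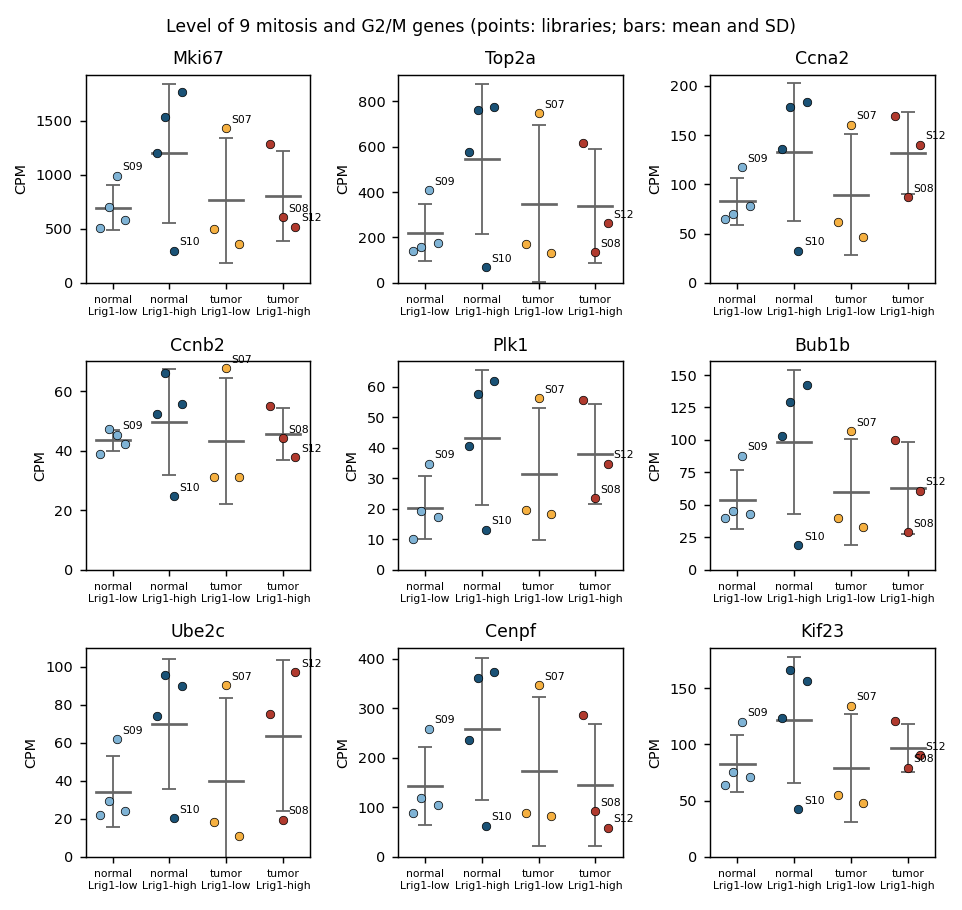
CPM (vertical axes, linear) of Mki67, Top2a, Ccna2, Ccnb2, Plk1, Bub1b, Ube2c, Cenpf and Kif23 in the 4 groups; points are libraries, lines and bars the mean and SD. In each panel S10 lies under the other 3 normal Lrig1-high libraries and S07 above the other 2 tumor Lrig1-low libraries; Mki67 stands at 295 CPM in S10 and at 1431 CPM in S07.

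The library numbers run through the 4 groups in turn, except that the last run, S13 to S15, has no tumor Lrig1-high library, although the labels do not say that such a run is an animal or a day. In the pairs S02 over S01, S06 over S05 and S14 over S13 all 32 genes were higher in the Lrig1-high library, with median log2 differences of 1.43, 1.56 and 1.68. In S10 over S09 all 32 were lower, with a median of -1.93. In tumors all 32 were higher in S04 than in S03 (1.37), all 32 lower in S08 than in S07 (-1.45), and 20 higher and 12 lower in S12 than in S11 (0.70). In each of the 7 pairs Lrig1 differed in the same direction as the median of these genes, by 1.29, 1.60, -1.22, 1.43, 1.47, -1.34 and 0.75 on the log2 scale in the order given.

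In tumors the direction between the fractions varied with the fit. With all 14 libraries in edgeR the log2 sort difference was above 0 for 19 of 32 genes, with a median of 0.08 against -0.06 for all genes tested. edgeR called 0 of the 32, where 0% of all genes tested passed, with 0 of the 32 and 1042 of all genes at an unadjusted p under 0.05; DESeq2 and limma-voom also called 0. In limma-voom the difference was above 0 for 31 of 32 genes, with a median of 0.71 against -0.12 for all genes. That median of 0.71 became 0.07 without S03, 0.19 without S04 and -0.04 without S11. The library weights, taken from these same data, were 2.31 for S03, 0.388 for S07 and 0.609 for S11. For S04, S08 and S12 they were 0.7, 0.472 and 0.0825. The groups of 0 genes failed to overlap, against 7.46% of all genes tested. The smallest p was that of Nuf2, with 0.75 ± 0.73 (SE; unadjusted p = 0.321, adjusted p = 0.806). Ube2c had 0.68 ± 0.78 and Ccna2 0.56 ± 0.56, while Cenpf had -0.25 ± 0.74 and Mki67 0.08 ± 0.62 (log2 ± SE). The centromere and kinetochore genes had the lowest median of the larger roles, -0.21, with 1 of 5 above 0, and the cyclins and Cdk1 had 0.28, with 4 of 4 above 0. In edgeR the median over the 32 genes moved to 0.92 without S07, to -0.36 without S04, to -0.21 without S11 and to -0.14 without S03.

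Without S07, S08, S09 and S10 the tumor fractions are 2 libraries against 2, and the median was 1.15. edgeR then called 6 of the 32 genes higher, where 0.322% of all genes were called higher: Ube2c, Ccna2, Nuf2, Kif11, Prc1 and Birc5. Their log2 fold changes were 2.61 ± 0.30 for Ube2c, 1.57 ± 0.23 for Ccna2, 2.01 ± 0.28 for Nuf2, 2.16 ± 0.33 for Kif11, 2.08 ± 0.34 for Prc1 and 1.32 ± 0.22 for Birc5 (SE), with adjusted p of 0.035 to 0.0498. The Lrig1-high side of this fit is S04 and S12. In S12 these 6 genes stood at 0.61 (Prc1) to 1.30 (Ube2c) times their level in S04. The other members ran from 0 (Ttk and Cenpa) to 1.12 (Kif2c) times, and the part of S12 in the calls was not tested. limma-voom on the same 10 libraries called 0 of the 32, with a median of 1.12 and 29 of 32 above 0. The edgeR count fell to 0 on leaving out any 1 of S01, S02, S05, S06, S13 or S14. Leaving out 1 of the 4 tumor libraries sets a lone library against 2 and takes its spread from the other groups. Counts of called genes from those fits are therefore not given. Averaged over both tissues, the fitted sort difference was above 0 for 31 of 32 genes with all libraries, with a median of 0.43 against -0.02 for all genes. edgeR called 0 of the 32, where 0% of all genes passed, with 1 of the 32 (Nusap1) and 687 of all genes at an unadjusted p under 0.05. DESeq2 and limma-voom called 0 as well. Without the 4 libraries edgeR called 21 higher, where 4.76% of all genes were called higher. In the same libraries limma-voom called 10 higher, a count given without its share of all genes and not read as a result about these genes.

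Tumor cells were compared with normal cells in each fraction. In the Lrig1-low fraction the fold change (tumor over normal) was above 0 for 28 of 32 genes, with a median of 0.27 against 0.02 for all genes, and 0 of the 32 passed edgeR's test, where 0.331% of all genes passed. No gene of the 32 had an unadjusted p under 0.05, against 1949 of all genes. The median was -0.59 without S07, -0.27 without the 4 libraries and -0.06 in limma-voom. Plk1 had the smallest p, with 0.62 ± 0.56 (SE; unadjusted p = 0.28, adjusted p = 0.752), and stood at -0.11 without S07. Mki67 had 0.13 ± 0.58 and Birc5 -0.01 ± 0.52 (log2 ± SE). The tumor and normal libraries overlapped for all 32 genes, where 18.3% of all genes tested did not overlap.

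In the Lrig1-high fraction the fold change of tumor over normal was below 0 for 31 of 32 genes, Bub1 being the exception at 0.11, with a median of -0.50 against -0.04 for all genes. edgeR called 0 of the 32, where 0% of all genes passed; 1 of the 32 and 1559 of all genes had an unadjusted p under 0.05. That gene was Nusap1, with -5.37 ± 2.03 (SE; unadjusted p = 0.0196, adjusted p = 0.37), and its value was 0.03 without S14. Cenpf had -0.83 ± 0.71, Mki67 -0.58 ± 0.59, Bub1b -0.64 ± 0.61 and Ccna2 -0.01 ± 0.52 (log2 ± SE). The median stayed below 0 on leaving out each library, from -0.99 without S04 to -0.30 without S08. Without S07, S08, S09 and S10 together it was -0.63, with 31 of 32 genes below 0. The groups overlapped for all 32 genes, against 8.39% of all genes that did not. Averaged over both fractions the median was -0.06, with 8 of 32 above 0, and edgeR called 0 of the 32, where 2.22% of all genes passed. In that average 0 of the 32 and 2413 of all genes had an unadjusted p under 0.05. Without S07, S08, S09 and S10 its median was -0.41, with 3 of 32 genes above 0. DESeq2 and limma-voom called 0 of the genes in these 3 comparisons.

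The test of whether the sort difference itself differed between tumors and normal epithelium gave values below 0 for 32 of 32 genes, with a median of -0.80 against -0.09 for all genes. edgeR called 0 of the 32, where 0% of all genes passed, and DESeq2 and limma-voom called 0; 1 of the 32 (Nusap1) and 999 of all genes had an unadjusted p under 0.05. Mki67 had -0.71 ± 0.82 (SE; unadjusted p = 0.405, adjusted p = 0.816) and Ccna2 -0.12 ± 0.73 (SE). The median was 0.00 without S07 and -1.25 without S04. Without S07, S08, S09 and S10 together it was -0.44, with 7 of 32 genes above 0. The 4 comparisons between pairs of groups share libraries and are given side by side, not as support for each other.

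The other genes of the pathway moved with these 32 to differing degrees. Over the 14 libraries the mean log2(CPM + 1) of the 32 genes followed that of 64 other mitosis and G2/M genes (r = 0.99), of 20 regulators of the program such as its transcription factors (r = 0.97) and of 38 DNA replication and S phase genes (r = 0.96). The 15 core subunits of the anaphase-promoting complex followed the 32 genes less closely (r = 0.65). These are descriptions over libraries that share depth and scaling, with no test. In the normal fractions 64 of 64 other mitosis genes (median 0.85), 38 of 38 replication genes (median 1.04) and 17 of 20 regulators (median 0.57) had a fold change above 0, and edgeR called 0 of each list. The mean level of the 32 genes exceeded that of the replication genes by 0.39 in S11 and 0.45 in S03, the lowest of all libraries, and by up to 1.17 in S05 (log2 units). S03 and S11 are tumor Lrig1-low libraries; the remaining library of that group, S07, stood at 1.05.

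Markers of some cell types moved across the same libraries. In the normal fractions the 15 stem cell genes had a median log2 fold change of 1.67, with 15 of 15 above 0, and the 7 Paneth cell genes 2.19, with 7 of 7 above 0. The 15 absorptive genes had -0.78, with 0 of 15 above 0, and the 6 tuft genes tested -1.03, with 0 of 6. None of these passed edgeR's test; 9 of 15 stem cell genes, 0 of 7 Paneth genes, 1 of 15 absorptive genes and 0 of 6 tuft genes had an unadjusted p under 0.05, and the 32 mitosis genes had 1. Over the 14 libraries the level of the 32 genes followed the Paneth list (r = 0.86) and the stem cell list (r = 0.77) and ran opposite to the tuft list (r = -0.79) and the absorptive list (r = -0.65). The enteroendocrine list had r = -0.58, and in the normal fractions a median of -0.11, with 4 of 9 above 0. The goblet list had little relation to the 32 genes (r = -0.14), with a median of -0.77 and 1 of 8 above 0. edgeR called 0 of either list. The summed Paneth level ran from 72.2 to 3751 CPM in the normal Lrig1-low, 423 to 11908 in the normal Lrig1-high, 289 to 4281 in the tumor Lrig1-low and 294 to 1989 CPM in the tumor Lrig1-high group. The part of cell type composition in the mitotic values was not tested. With the mitotic values the share of mitochondrial ribosomal RNA had r = -0.23 and total counts r = 0.38. The fibroblast and smooth muscle list had r = -0.51, the endothelial list -0.44 and the leukocyte list -0.32. The part of any of these in the mitotic values was not tested. The 12 leukocyte genes summed to 1.41 to 57.2 CPM per library, with 5 to 10 of the 12 at 0 counts, and the 9 endothelial genes to 3.42 to 198 CPM, with 2 to 5 of the 9 at 0.

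Among the 32 genes themselves, the 496 pairs correlated over the 14 libraries with r between 0.02 and 0.99 and a median of 0.85, and without S12 with r between 0.60 and 0.99 and a median of 0.93 (log2 scale, no test). Cenpe and Cenpf were the closest pair with r = 0.99. Cenpa (r = 0.45), Cdc20 (r = 0.60), Ttk (r = 0.72) and Nusap1 (r = 0.75) followed the mean of the other members least, and without S12 these values were 0.94, 0.90, 0.90 and 0.77.

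Lrig1 is the gene of the sort, and its RNA was set against that of Mki67 as a single planned relation. Over 14 libraries Pearson's r of log2(CPM + 0.5) was 0.94 (permutation test, two-sided, p = 2e-05, the smallest that 100000 resamples can give) and Spearman's rho was 0.89 (p = 0.00016). Without S04 and S14, the libraries farthest from the median of Lrig1, r was 0.93. Within the normal libraries r was 0.95 (n = 8, exact permutation p = 0.00069) and within the tumor libraries 0.96 (n = 6, exact permutation p = 0.017). The Lrig1 values leave a gap between 85.5 and 126 CPM, and among the 9 libraries under 100 CPM, a subset chosen after seeing the data, r was 0.76 (exact permutation p = 0.018) and rho 0.68 (exact permutation p = 0.05). The 5 libraries above the gap are too few for a value of their own. The r of Lrig1 with the 32 genes ran from 0.35 for Cenpa and 0.49 for Cdc20 to 0.98 for Top2a, as a description with no test.

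**Figure D4:**
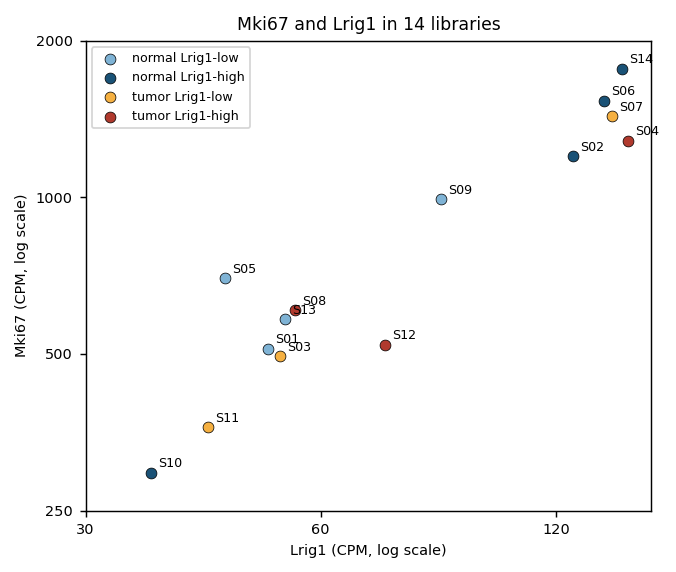
Mki67 against Lrig1 in 14 libraries (both in CPM on log scales), coloured by labelled group. S10, labelled normal Lrig1-high, is at the lower end of both axes with 36.4 CPM of Lrig1 and 295 CPM of Mki67, and S07, labelled tumor Lrig1-low, is at the upper end with 142 and 1431 CPM.

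One value stood far outside all others. Nusap1 held 148334 counts in S14, or 10738 CPM, which was 100-fold above the next library, S07, with 107 CPM. It made up 0.858% of all counts of S14 (95% Wilson interval 0.853% to 0.862%, which covers counting error only) and 66.4% of the counts of the 32 genes there. The other 31 genes in S14 stood at 0.94 to 1.43 times the mean of S02 and S06. The gene next to Nusap1 on the opposite strand, Oip5, stood at 9.56 CPM in S14, against 8.01 in S02 and 11.8 in S06, and Chp1, Ndufaf1 and Rtf1 near it were not raised either. Such peaks in 1 library, at least 200 CPM and over 10 times the next library, occurred for 78 genes in all, 39 of them in S14, 17 in S13 and 10 in S03. The Nusap1 fold changes are given without S14 beside those with it.

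S12, labelled tumor Lrig1-high, was uneven within the set. Ttk and Cenpa had 0 counts there, a value that allows up to 3 counts, which is 0.227 CPM before scaling, while S04 of the same group had 27.2 and 24.8 CPM. Cdc20 stood at 0.05, Aurkb at 0.12, Hmmr at 0.16 and Tpx2 at 0.18 times its level in S04; these genes were named after their values were seen. Ube2c stood at 1.30, Kif2c at 1.12, Nuf2 at 1.07 and Bub1 at 1.06 times the level in S04. The library's mitochondrial ribosomal share, 42.8%, and its 11995 genes with a count stand beside these values, and their part in them was not tested.

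**Figure D5:**
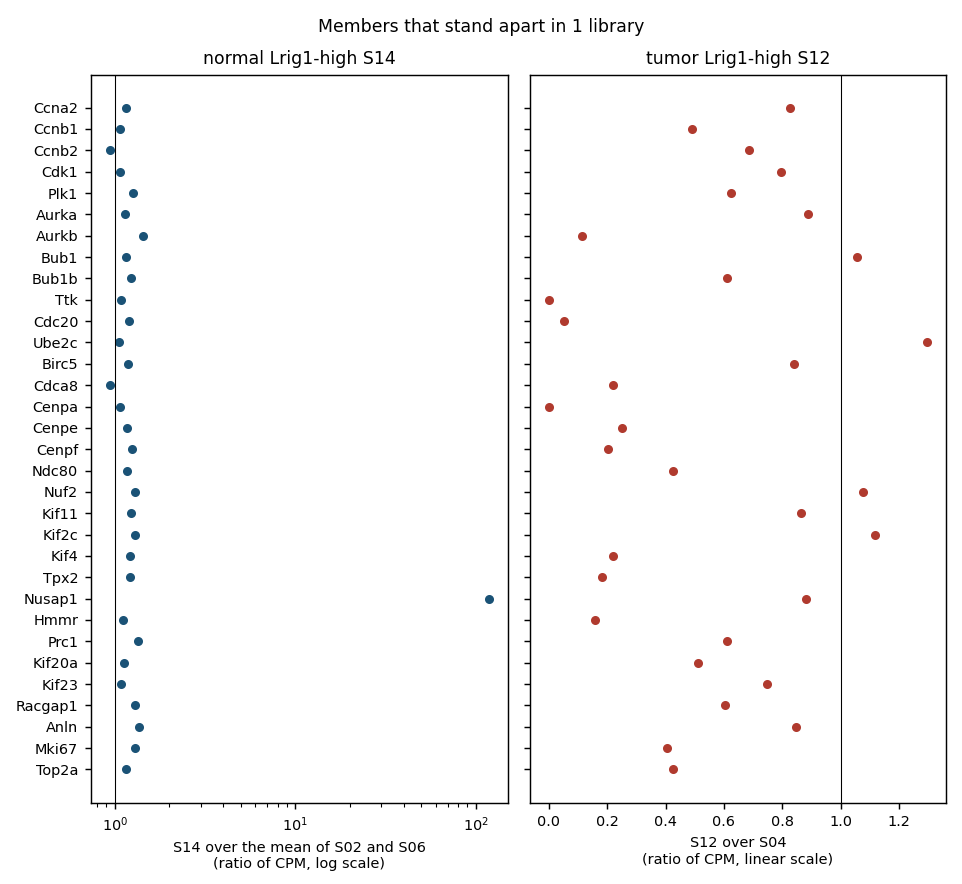
Ratio of CPM for each of the 32 genes: at left S14 over the mean of S02 and S06 (log scale), at right S12 over S04 (linear scale). At left 31 genes lie between 0.94 and 1.43 and Nusap1 lies far to the right; at right the values spread from 0 for Ttk and Cenpa to 1.30 for Ube2c.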

How the data were processed

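The authors deposited raw read counts per gene for 15 libraries; per the file headers they were made with featureCounts 1.5.3 on RefSeq exons of mm10, counting reads on the reverse strand, and per the submitters' processing notes reads were trimmed with Trimmomatic and aligned with HISAT2. Per the labels, RNA from sorted cells went into stranded total-RNA libraries for low input, sequenced paired-end; ribosomal RNA was depleted by probes. The table holds 1 column per library; no option for read pairs or multi-mapping reads is set, per the file headers. Of 27179 genes, 25275 had a RefSeq symbol.

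S15 was left out (a minimum of 1000 counts). From the counts, CPM with TMM scaling was computed, and edgeR 4.0.16 (quasi-likelihood, filterByExpr, 1 coefficient per group, 13883 genes, 14 libraries) was run with Benjamini-Hochberg adjustment over all genes; genes were called at an adjusted p of 0.05. limma 3.58.1 (voom with sample weights) and DESeq2 1.42.0 were alternatives, as were other filters and scalings, runs of library numbers as a block, S15 included, and libraries left out. The scripts were tested on simulated counts. No covariate was used, since the labels name no animal or batch.

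The members and lists were chosen with earlier results of these data known. Values of every library are given for the member with the highest mean in each role, for Mki67 and Ube2c, and for the member with the smallest p in a comparison where none was called; others are given by ranges. Promoters came from RefSeq on GRCm38.p6, which has the coordinates of mm10. Wilson and count-of-0 limits cover counting error only.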

Additional observations from a re-analysis of the deposited data

Results flagged for a closer look

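In the 2 groups of 4 libraries the highest or lowest library was set against the rest of its group for each of the 32 genes, 64 groups in all, by the gap to its nearest neighbour as a share of the group's range. The values were CPM and not their logs, a scale that marks high libraries more readily than low ones. Which libraries are marked depends on that scale. Where values are normally distributed, chance alone marks about 1 in 20 such groups. Here 16 of 64 were marked, and the genes share their libraries. In the normal Lrig1-low group S09 stood above the other 3 libraries for 13 genes, given here as its CPM and the range of the others: Ccnb1 (24.4 against 9.10 to 11.3), Cdk1 (44.05 against 11.6 to 12.5), Aurka (24.9 against 9.93 to 11.7), Aurkb (40.2 against 7.99 to 11.9), Bub1b (87.9 against 40.03 to 45.01), Cdca8 (47.3 against 22.6 to 26.1), Nuf2 (38.2 against 14.8 to 17.7), Kif11 (124 against 57.4 to 60.1), Nusap1 (77.8 against 22.8 to 23.8), Prc1 (81.4 against 21.5 to 29.3), Racgap1 (67.8 against 28.2 to 32.2), Anln (54.8 against 25.3 to 25.4), Top2a (408 against 138 to 177). In the normal Lrig1-high group S10 stood below the others for Cdk1 (7.15 against 42.7 to 49.7) and Cdca8 (11.2 against 62.02 to 70.3). In the same group S14 stood above the others for Nusap1, at 10738 CPM against 9.88 to 101 CPM. The tumor groups hold 3 libraries each and were not examined this way. S09 and S10 are also neighbours in library number whose Lrig1, at 85.5 and 36.4 CPM, went against the order of their labels; the part of this in the values was not tested.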

How the results depend on the processing

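No member was called by edgeR in any of the 7 comparisons with all 14 libraries, with DESeq2's size factors, without the filter, with at least 1 CPM in at least 4 libraries, with S15, with each library left out, or with the runs of library numbers as a block, nor in the 4 comparisons between pairs of groups with only those groups in the fit; the cause of the changes below was not tested. In normal epithelium limma-voom called 29 members higher and edgeR without S07, S08, S09 and S10 called 19. With 1 library left out limma-voom called 21 to 30, and without the 4 it called 31, counts given without their share of all genes. The count of 19 fell to 7 without S01 or S05 and rose without S04 or S12. The shares of all genes called in those fits are not given. In tumors the count without the 4 was 6 and the median 1.15, and the count, in either direction, ran from 0 to 22. Averaged over both tissues it was 21 and ran from 16 to 32. limma-voom without the 4 called 0 in tumors and 10 averaged over both tissues, again given without the share of all genes. With 1 library left out, the Nusap1 log2 fold change of tumor over normal ran from -5.78 to 0.0278 in Lrig1-high cells and from -3.33 to 0.16 averaged over both fractions, where it was 0.0089 with the runs as a block; that of Plk1 in Lrig1-low cells ran from -0.11 to 0.996. The labels give no replicate number or animal that groups share, so the runs are no stated pairing. Depth was 9508505 counts or more in each of the 14 libraries, with 3 or 4 libraries a group.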
